A study of Mus musculus with 8 samples.

Results

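The Wnt ligands of the mouse molar are described here as the 10 genes Wnt3, Wnt4, Wnt5a, Wnt5b, Wnt6, Wnt7b, Wnt10a, Wnt10b, Wnt11 and Wnt16, taken by symbol from the 43629 Ensembl genes of the count tables. All 10 were found in the tables, 9 had enough reads to be tested, and Wnt16 had not. RNA-seq was made from lower molars at embryonic day E18.5, with left and right teeth of an embryo pooled. The control group held 4 embryos labelled Jagged1 fl/fl (J3, J5, J6 and J7), and the mutant group held 4 embryos of genotype K14:cre; Jagged1 fl/fl (K14J26, K14J28, K14J29 and K14J30), so that by these labels the controls carry the same floxed alleles without Cre. The methods of the study call its controls WT littermates, and the labels are followed here. The K14 promoter drives Cre in epithelium, so the mesenchyme of a mutant molar keeps its Jagged1, and the RNA of a whole molar holds both tissues. In such bulk RNA, fewer cells of a type and less RNA per cell cannot be told apart.

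Wnt proteins are secreted, lipid-modified ligands. Some of them, Wnt3, Wnt6, Wnt10a and Wnt10b among these, are mostly known as activators of the canonical pathway, in which a Frizzled receptor and its co-receptor Lrp5 or Lrp6 stabilize beta-catenin and Lef/Tcf factors switch on target genes. Others, such as Wnt5a and Wnt11, are mostly known for beta-catenin independent signalling through Ror and Ryk receptors, which orients cells and steers their movement. In the tooth, canonical ligands are made mainly by the dental epithelium and mark the placode and the signalling centres that place the cusps, while Wnt5a is mainly a ligand of the dental mesenchyme. Mutations of WNT10A are a common genetic cause of missing teeth in humans.

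Before a Wnt leaves the cell, the acyltransferase Porcn attaches a fatty acid to a conserved serine, the residue by which the ligand grips its Frizzled receptor. The 33 coding bases around the codon of this serine are printed for 6 ligands that are set side by side in the results, to show how far their sequences differ at this site. They were read 5′ to 3′ on the strand of the gene from the GENCODE M21 transcripts on GRCm38, with the serine codon in capitals.
Wnt6: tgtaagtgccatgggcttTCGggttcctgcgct
Wnt10a: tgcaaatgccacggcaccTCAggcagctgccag
Wnt10b: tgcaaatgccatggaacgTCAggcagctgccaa
Wnt11: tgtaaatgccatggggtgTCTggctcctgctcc
Wnt5a: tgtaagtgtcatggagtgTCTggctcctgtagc
Wnt5b: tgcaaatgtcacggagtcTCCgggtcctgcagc
In all 10 ligands the codon lies inside a coding exon. It is in exon 4 of 4 of Wnt6 (plus strand, chr1:74784166-74784198) and in exon 4 of 4 of Wnt10a (plus strand, chr1:74803150-74803182). In Wnt10b it is in exon 5 of 5 (minus strand, chr15:98772875-98772907) and in Wnt11 in exon 6 of 7 (plus strand, chr7:98850254-98850286). Wnt5a carries it in exon 5 of 5 (plus strand, chr14:28522509-28522541), and Wnt5b likewise in exon 5 of 5 (minus strand, chr6:119433797-119433829). Wnt10a and Wnt10b had 29 of the 33 bases in common, whereas Wnt6 and Wnt10a, which are neighbours in the genome, had 19. Wnt5a had 26 in common with Wnt5b, but 29 with Wnt7b and 27 with Wnt11, so that the stretch did not set Wnt5a and Wnt5b apart as a pair. Over all 10 ligands 15 bases were the same. The longest stretch that the transcripts of any pair of members shared was 29 bases, between Wnt5a and Wnt5b, while Wnt10a shared at most 20 with Wnt10b and 22 with Wnt3 and with Wnt4.

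The tables held between 17327224 and 28613574 counted reads per control embryo and between 24692128 and 29792467 per mutant embryo. At these depths 3 counts are at most 0.166 CPM (counts per 1e+06 of the library size after TMM scaling), the unit used below. Jag1 had 100.7 ± 4.12 CPM in controls and 44.0 ± 10.03 CPM in mutants (SD, n = 4 each), and was lower in every mutant embryo. Markers of dental epithelium and mesenchyme were present in all 8 embryos. Several marker genes set embryos apart. The sum of 8 skeletal muscle genes was 417 CPM in J6 and 210 CPM in J7, against 5.48 to 19.4 CPM in the other embryos, and Xist was high in K14J28 and K14J29 only. K14J28 also stood apart by its bone markers, with a sum of 1901 CPM over 5 genes against 513 to 789 CPM in the other embryos, and by 2 of 4 macrophage markers, Csf1r at 92.8 CPM against 26.6 to 44.9 CPM and Cd68 at 42.3 CPM against 11.6 to 20.9 CPM, while Adgre1 was within the range of the other embryos and C1qa, at 7.95 CPM, was below every control. The sum of 3 red cell markers was also highest in K14J28, at 1206 CPM against 504 to 939 CPM in the other embryos. Enamel matrix genes differed widely among the mutants and are given beside the ligands they move with.

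Levels of different ligands were compared as CPM per kilobase of exon. In control molars Wnt6 was the most abundant of the 10, at 45.0 ± 7.49 CPM per kb (SD, n = 4), followed by Wnt4 at 25.2 ± 0.477, Wnt5a at 21.6 ± 1.04 and Wnt10a at 20.2 ± 3.53. These 4 ligands stood apart from the rest, and in every control the lowest of them was more than 3 times as high as Wnt11, the next. Wnt11 was at 4.35 ± 0.239, Wnt7b at 3.87 ± 0.541, Wnt10b at 3.47 ± 1.14 and Wnt5b at 2.59 ± 0.228 CPM per kb. Wnt3 was at 0.278 ± 0.0706 and Wnt16 at 0.0230 ± 0.0111 CPM per kb. Among neighbours in this order, the control ranges overlapped for Wnt5a and Wnt10a, Wnt11 and Wnt7b, Wnt7b and Wnt10b, and Wnt10b and Wnt5b. With the longest transcript as the length instead of all exons, Wnt7b took rank 5 and Wnt11 rank 6.

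In mutant molars the order differed at several places. Wnt6 was still highest at 77.0 ± 34.3 CPM per kb (SD, n = 4), and Wnt10a was next at 39.8 ± 18.03, above Wnt4 at 25.5 ± 10.4 and Wnt5a at 19.99 ± 0.586. Wnt10a exceeded Wnt4 in 4 of 4 mutants, whereas Wnt4 was above Wnt10a in every control. Wnt10b was at 1.44 ± 0.923 CPM per kb and lay below Wnt5b, at 3.29 ± 0.705, in 3 of the 4 mutants. The summed level of the 10 ligands was 123, 129, 139 and 116 CPM per kb in J3, J5, J6 and J7. It was 263, 115, 169 and 154 in K14J26, K14J28, K14J29 and K14J30. The sum in K14J28 was thus next to that of J7, the lowest control, and the sums of the other mutants were above all controls. Of this sum, Wnt6 took 35.4 ± 3.23% in controls and 42.9 ± 4.50% in mutants, and Wnt10a took 15.9 ± 1.76% and 22.1 ± 2.61% (SD, n = 4 each). Wnt4 took 19.9 ± 1.15% in controls and 14.5 ± 1.28% in mutants. For Wnt10a and Wnt4 these shares did not overlap between the groups, and the shares were not tested. A share also falls when the other ligands rise. In K14J26 the Wnt4 share was 15.5%, below every control, while its level of 40.9 CPM per kb was above every control.

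**Figure D1:**
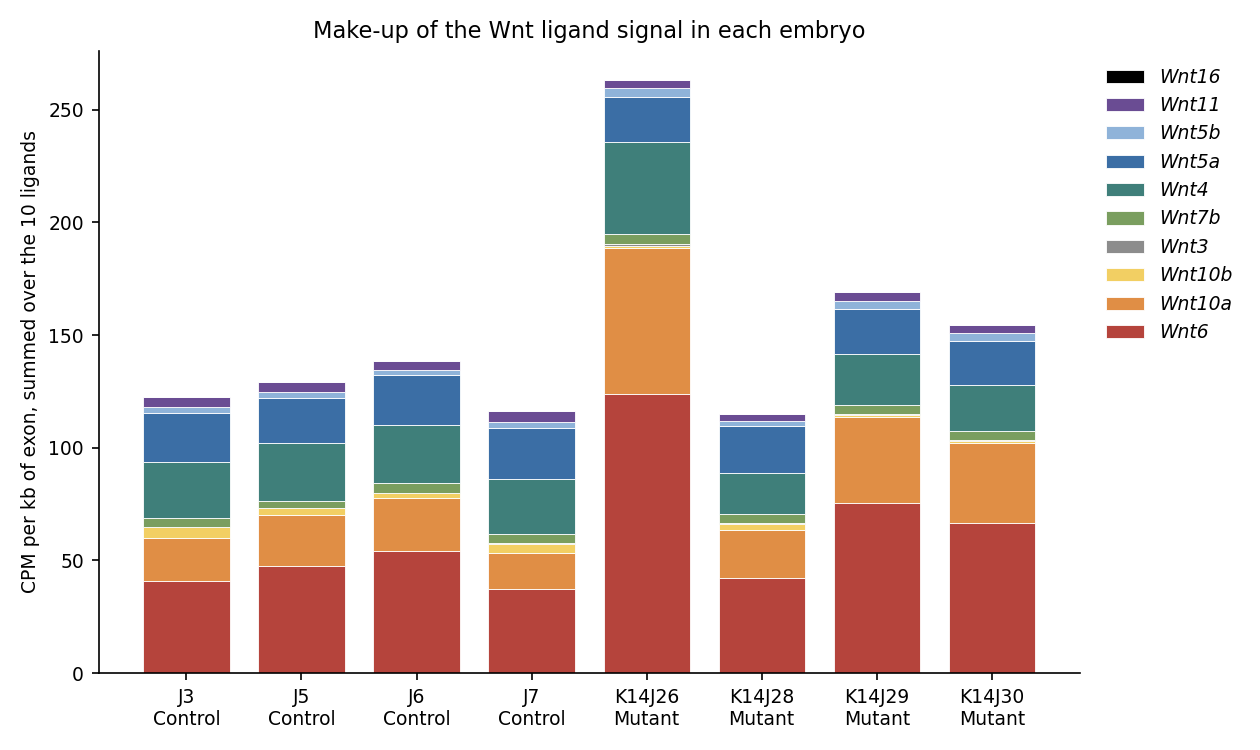
Stacked bars show the level of each of the 10 ligands in each embryo, in CPM per kb of exon, with controls on the left and mutants on the right. Wnt6 and Wnt10a form the tall lower blocks of K14J26, K14J29 and K14J30, and the bar of K14J28, at 115 CPM per kb, is as low as those of the controls.

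The quasi-likelihood test of edgeR was run on mutant against control counts for the 17129 genes with enough reads, and p-values were adjusted over them by Benjamini-Hochberg. The 4 embryos of a group are separate animals whose labels state neither litter nor sex, and each p-value measures a difference against the spread between them. Among the 9 tested ligands, Wnt10a was called higher and Wnt11 lower at an adjusted p under 0.05, and 7 were not called. Over all tested genes 9.52% were called higher and 6.61% lower, so that 1 of 9 in each direction was near the background. The called genes of the whole table were 59.0% higher with TMM scaling, 48.5% with upper-quartile scaling and 44.6% by library size only. The median log2 fold change of the 9 ligands was 0.13, against 0.0058 over all tested genes. Of the 9, 6 were above 0, beside 50.7% of all tested genes. The study instead used the unadjusted p, at 0.05 or less, together with a fold change of 0.5 or more, read here as a log2 ratio in either direction. By this rule Wnt3, Wnt6 and Wnt10a were higher and Wnt10b was lower, where the share of all tested genes was 8.33% higher and 5.85% lower. Mutant and control levels were fully separate for Wnt11 and for no other tested ligand, and 24.2% of all tested genes were separate in this way.

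**Figure D2:**
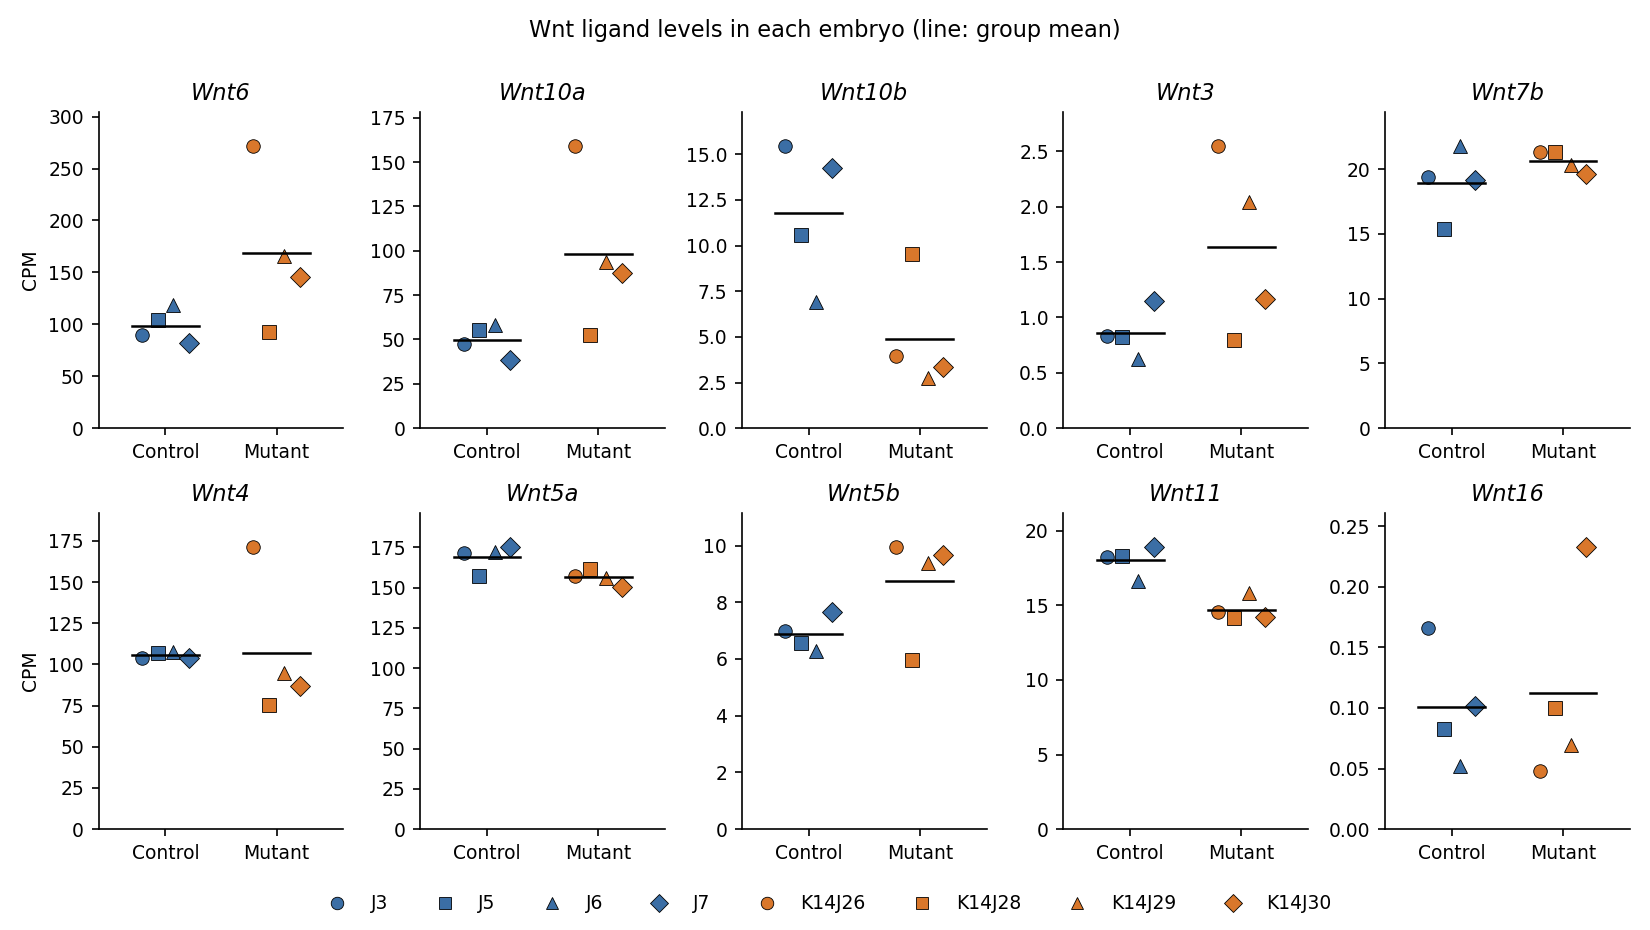
Each panel shows the level of a ligand in CPM on an axis from 0, with a symbol for each of the 4 control (blue) and 4 mutant (orange) embryos and a line at the group mean. The orange squares of K14J28 lie among or next to the blue symbols for Wnt6, Wnt10a, Wnt10b and Wnt3, while for Wnt11 all 4 mutants, at 14.2 to 15.8 CPM, lie below all controls, at 16.6 to 18.9 CPM.

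Wnt6 and Wnt10a are mostly known as canonical ligands, and bulk RNA does not show which tissue of the molar made them. They are adjacent on chromosome 1 of GRCm38, Wnt6 from 74771892 to 74785322 and Wnt10a from 74791516 to 74804179, on the same strand and 6.19 kb apart with no annotated gene between them. Wnt10a had 47.6, 55.5, 58.0 and 38.7 CPM in the controls J3, J5, J6 and J7. Its mutant levels were 159 CPM in K14J26, 52.3 in K14J28, 93.7 in K14J29 and 87.7 in K14J30. Of the mutants, K14J26 was far above the rest and K14J28 lay within the control range, and the other 2 were above every control. The group mean was 1.97 times as high in mutants, with a log2 fold change of 0.97 (SE 0.29, 95% interval 0.32 to 1.62, adjusted p = 0.0489 from edgeR). The call ended when J3, J5, J6, J7, K14J26, K14J29 or K14J30 was left out (adjusted p from 0.0505 to 0.132), and without K14J26 the log2 fold change was 0.64. Without K14J28 it was 1.18, with an adjusted p of 0.00826. The call also ended with 3 other scalings, by upper quartiles, by library size only or without the 20 most abundant genes (adjusted p from 0.0501 to 0.0504), and was kept with relative log expression (0.04998).

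Wnt6 had 89.5, 104, 119 and 82.1 CPM in the controls J3, J5, J6 and J7. In K14J26, K14J28, K14J29 and K14J30 its level was 272, 92.5, 166 and 146 CPM. The pattern was that of Wnt10a, with K14J26 highest, K14J28 inside the control range and the other mutants between them. The log2 fold change was 0.77 (SE 0.28, 95% interval 0.15 to 1.40), and its adjusted p of 0.0849 (edgeR) did not pass; this interval, like the others given here, is not adjusted for the number of genes. Wnt6 was called higher with DESeq2 (adjusted p = 0.0237), with Xist in the edgeR fit (0.0330), without K14J28 (0.0140) and without K14J28 and K14J29 (0.0338). Of all tested genes, 2244, 1515, 2479 and 1400 were called higher in these settings, against 1631 with edgeR on all 8 embryos. With 1 embryo left out, the log2 fold change of Wnt6 ran from 0.45 to 0.97. Its adjusted p was up to 0.198, and it was called only without K14J28. Over the 8 embryos the log2 levels of the neighbours Wnt6 and Wnt10a had a Pearson r of 0.99, the highest of any pair of members. Per kb, Wnt6 exceeded Wnt10a by 2.12, 2.12, 2.31 and 2.39 times in J3, J5, J6 and J7. In K14J26, K14J28, K14J29 and K14J30 it did so by 1.92, 1.99, 1.99 and 1.87 times. The ratio thus varied far less than the levels, and the mutant ratios were all below those of the controls.

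Wnt10b, the paralog of Wnt10a that marks the early dental placode, lies on chromosome 15 of GRCm38 from 98770712 to 98778150. It had 15.4, 10.6, 6.90 and 14.3 CPM in J3, J5, J6 and J7, and 3.94, 9.55, 2.74 and 3.38 CPM in K14J26, K14J28, K14J29 and K14J30. The mutants other than K14J28 were below every control, and J6 was the lowest control. With a log2 fold change of -1.26 (SE 0.40, 95% interval -2.16 to -0.35), the largest in size of the 9 ligands, its adjusted p was 0.0605 (edgeR). Wnt10b was called lower without K14J28 (log2 fold change -1.83, adjusted p = 0.00604), without K14J28 and K14J29 (0.0295) and with DESeq2 (0.00832). Of all tested genes, 1843, 769 and 1718 were called lower in these settings, against 1133 with edgeR on all 8 embryos. With any other single embryo left out Wnt10b was not called, with an adjusted p of up to 0.146. The ratio of Wnt10a to Wnt10b per kb was 4.24, 7.24, 11.6 and 3.74 in J3, J5, J6 and J7. In K14J26, K14J28, K14J29 and K14J30 it was 55.6, 7.55, 47.1 and 35.8. In 3 mutants the balance of these paralogs was therefore shifted to Wnt10a beyond every control, and in K14J28 it was within the control range.

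Wnt3, a canonical ligand of embryonic ectoderm, lies on chromosome 11 of GRCm38 from 103774150 to 103817957 and was measured on 12 to 59 counts per embryo. Its level was 0.831, 0.825, 0.623 and 1.15 CPM in J3, J5, J6 and J7, and 2.55, 0.799, 2.04 and 1.16 CPM in K14J26, K14J28, K14J29 and K14J30. K14J26 and K14J29 were above all controls, K14J30 was level with the highest control and K14J28 was within their range. This gave a log2 fold change of 0.90 (SE 0.38, 95% interval 0.05 to 1.76, adjusted p = 0.126 from edgeR), and without K14J28 it was 1.13 with an adjusted p of 0.0338. Leaving out K14J28 raised the number of all tested genes called higher from 1631 to 2479. Wnt7b, a ligand of oral ectoderm known to oppose Shh outside the tooth-forming region, lies on chromosome 15 from 85535437 to 85582473. It had 19.4, 15.4, 21.8 and 19.2 CPM in J3, J5, J6 and J7, and 21.3, 21.3, 20.3 and 19.6 CPM in K14J26, K14J28, K14J29 and K14J30. Every mutant value was inside the control range, and the log2 fold change was 0.13 (95% interval -0.11 to 0.36, adjusted p = 0.423 from edgeR).

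Wnt4, known for tubule formation in the kidney and expressed in dental epithelium, lies on chromosome 4 of GRCm38 from 137277489 to 137299726. It was almost the same in all controls, at 104, 107, 108 and 104 CPM in J3, J5, J6 and J7. Among the mutants K14J26 had 171 CPM, K14J28 75.6, K14J29 94.9 and K14J30 86.7, so that no mutant lay within the control range. K14J26 was above it and the other 3 were below it. The log2 fold change of 0.02 (SE 0.22, 95% interval -0.48 to 0.52, adjusted p = 0.957 from edgeR) hides these opposite directions, and it was -0.03 with upper-quartile scaling and -0.12 by library size only. Without K14J26 it was -0.30, with an adjusted p of 0.0277. The coefficient of variation was 1.90% in controls and 40.6% in mutants.

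Wnt11 and Wnt5a represent the ligands known for beta-catenin independent signalling. Wnt11, which branches the ureteric bud and guides convergent extension, lies on chromosome 7 of GRCm38 from 98835112 to 98855195. It had 18.2, 18.3, 16.6 and 18.9 CPM in J3, J5, J6 and J7, and 14.6, 14.2, 15.8 and 14.2 CPM in K14J26, K14J28, K14J29 and K14J30. All mutants were below all controls, K14J28 included, and the mutants differed little among themselves. The fall was small, with a log2 fold change of -0.29 (SE 0.08, 95% interval -0.47 to -0.11, adjusted p = 0.0377 from edgeR). It was between -0.33 and -0.27 whichever embryo was left out, but the adjusted p was 0.0521 to 0.0980 without J3, J5, J6, J7, K14J29 or K14J30. The call also ended with Xist in the fit (0.0694), without K14J28 and K14J29 (0.0688) and with no count filter (0.0708).

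Wnt5a lies on chromosome 14 of GRCm38 from 28504750 to 28527448. It had 171, 157, 172 and 175 CPM in J3, J5, J6 and J7, and 157, 162, 156 and 151 CPM in K14J26, K14J28, K14J29 and K14J30. All mutants were below 3 of the controls and near J5, the lowest control. They differed from the controls by -0.11 on the log2 scale (SE 0.06, 95% interval -0.24 to 0.02, adjusted p = 0.193 from edgeR). Wnt5b, its paralog, lies on chromosome 6 from 119432531 to 119544347. It had 6.98, 6.56, 6.28 and 7.67 CPM in J3, J5, J6 and J7, and 9.95, 5.96, 9.39 and 9.66 CPM in K14J26, K14J28, K14J29 and K14J30. K14J28 was below every control and the other mutants above every control. This amounted to a log2 fold change of 0.34 (SE 0.17, 95% interval -0.04 to 0.73, adjusted p = 0.182 from edgeR), and without K14J28 it was 0.49 with an adjusted p of 0.0168. Leaving out K14J28 raised the number of all tested genes called higher from 1631 to 2479. Per kb, Wnt5a exceeded Wnt5b by 7.76 to 9.31 times in controls. The ratio was 5.35, 9.21, 5.64 and 5.29 in K14J26, K14J28, K14J29 and K14J30, again with K14J28 alone within the control range.

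Wnt16, a ligand known for its part in cortical bone, lies on chromosome 6 of GRCm38 from 22288227 to 22298522. It had 1 to 6 counts in each embryo, or 0.0519 to 0.166 CPM in controls and 0.0481 to 0.233 CPM in mutants, and a difference was not detectable at this depth. Exons of Wnt5a, Wnt7b and Wnt11 overlap genes on the opposite strand, Gm2670 over 358 of 7823 exon bases, AU022754 over 324 of 4898 and Gm8398 over 364 of 4137. The library kit does not mark strand, so reads in these stretches cannot be told apart.

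**Figure D3:**
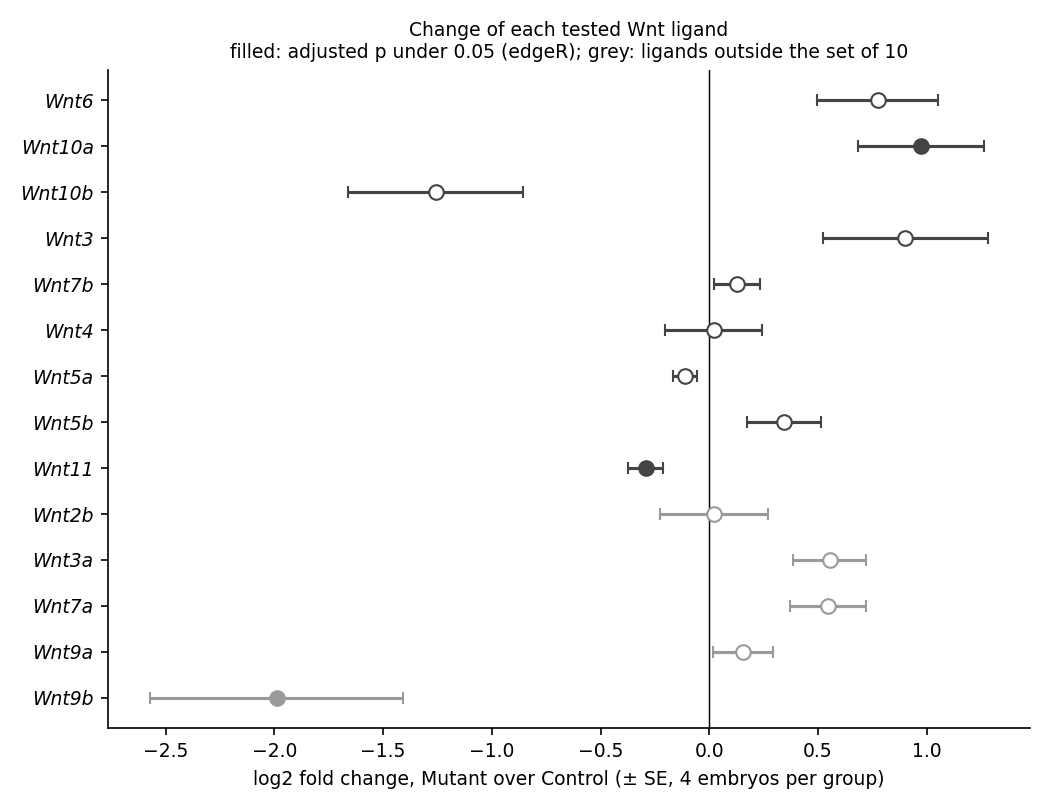
Points give the log2 fold change of mutant over control for each tested Wnt ligand, with bars of 1 standard error and 4 embryos per group, and filled points have an adjusted p under 0.05. Wnt10a at 0.97 and Wnt11 at -0.29 are filled, and Wnt10b at -1.26 lies far from 0 with a wide bar.

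The spread between embryos differed by ligand. From controls to mutants the coefficient of variation went from 16.6% to 44.5% for Wnt6, from 17.4% to 45.3% for Wnt10a, from 32.8% to 64.0% for Wnt10b and from 25.4% to 48.8% for Wnt3. It went from 8.80% to 21.4% for Wnt5b. By contrast it was 4.83% and 2.93% for Wnt5a, 13.99% and 4.00% for Wnt7b, and 5.49% and 5.27% for Wnt11. A larger coefficient in mutants was found for 73.6% of all tested genes, with a median of 8.81% in controls and 14.8% in mutants. K14J28 had 6 of the 9 tested ligands within the control range, K14J26 had 2, and K14J29 and K14J30 had 1 each. Over all tested genes the share within the control range was 39.8% in K14J28, 23.9% in K14J26, 31.4% in K14J29 and 38.7% in K14J30. Jag1 was at 39.0 CPM in K14J28, between 34.0 CPM in K14J26 and 57.1 CPM in K14J30. These are levels of whole molars, whose mesenchyme keeps its Jagged1, and their relation to the ligand levels was not tested. K14J28 was also the embryo with the high bone sum, the highest red cell sum and the high Csf1r and Cd68. Of the 5 bone markers, Ctsk was at 807 CPM in K14J28 against 106 to 252 CPM in the other embryos, Acp5 at 454 against 65.3 to 158 CPM and Ibsp at 448 against 141 to 189 CPM. Sp7 was within the range of the others, and Bglap, at 31.3 CPM, was the lowest of the mutants and above the controls. The part of these cells in the ligand levels of K14J28 was not tested.

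Enamel transcripts moved with part of the ligands. The summed level of Amelx, Ambn, Enam, Mmp20 and Klk4, which encode the enamel matrix and its proteases, ran from 557 to 3254 CPM in controls and from 3503 to 114369 CPM in mutants. Of these 5 genes 4 were called higher, beside 9.52% of all tested genes, and none was at 0 in any embryo. An enamel gene score, their mean log2 CPM, ordered the controls as J7 (4.73), J3 (4.77), J5 (6.13) and J6 (6.87). The mutants followed as K14J28 (6.94), K14J30 (8.17), K14J29 (9.79) and K14J26 (11.78). Along this order the level of Wnt6 rose at every step within the controls and again within the mutants, and so did that of Wnt10a. This held for 1.96% of all tested genes. In the mutants Wnt3 and Wnt4 were in the same order too, as were 13.6% of all tested genes. In the controls Wnt3 and Wnt5b were in the opposite order, as were 5.03% of all tested genes. Wnt10b was at 2.74 to 3.94 CPM in the 3 mutants with the highest scores and at 6.90 to 15.4 CPM in the other embryos, but did not fall at every step in either group. J6 and K14J28, which have nearly the same score, had 6.90 and 9.55 CPM. Wnt11, Wnt5a and Wnt7b followed no such order in either group.

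**Figure D4:**
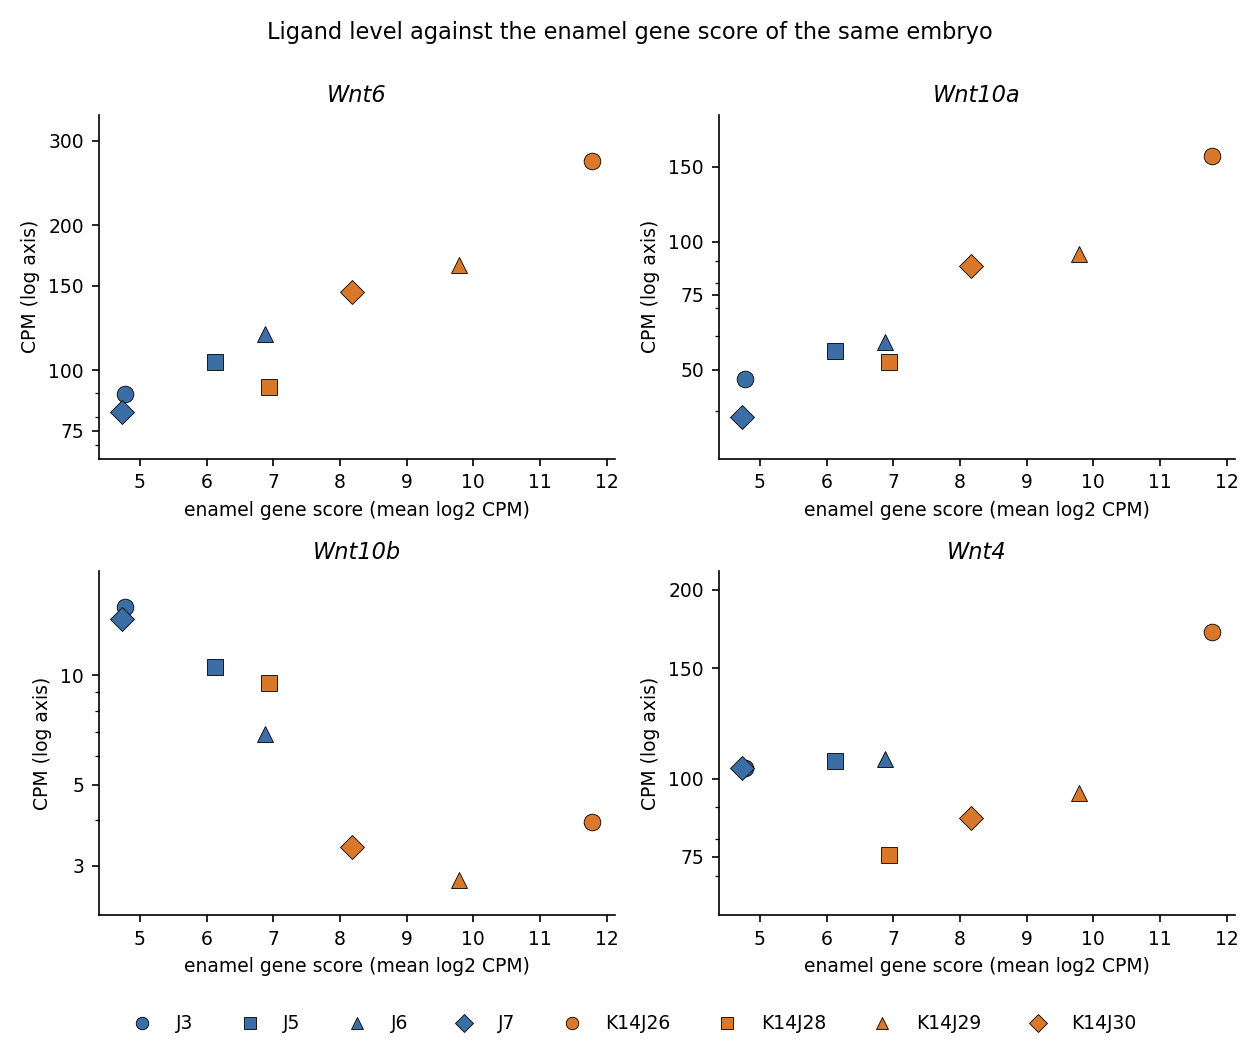
Each panel plots the level of a ligand in CPM on a log axis against the enamel gene score, the mean log2 CPM of 5 enamel genes, with a symbol for each embryo. Wnt6 and Wnt10a climb with the score in both groups, Wnt10b is lowest in the 3 mutants with the highest scores, and the Wnt4 levels of 3 mutants lie below the flat line of the controls.

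When the edgeR fit held the enamel gene score as a further term, the log2 fold changes became -0.12 for Wnt10a, -0.31 for Wnt6, -0.10 for Wnt3 and -0.75 for Wnt4, with adjusted p from 0.0584 to 0.941. Those of Wnt10b and Wnt11 were -0.25 and -0.29, with adjusted p of 0.780 and 0.221. Every mutant had a higher score than every control, so that the score and the genotype cannot be told apart by this fit. The sum of 7 epithelial markers was also higher, at 5891 to 8350 CPM in mutants against 4914 to 5611 CPM in controls, with 1 of the 7, Krt14, called higher and none at 0. Among mutants it was in the order of Wnt6 and Wnt10a, from 5891 CPM in K14J28 to 6625, 7296 and 8350 CPM in K14J30, K14J29 and K14J26. Epcam, also on this list, was lowest in K14J26 at 113 CPM, and so was Shh among the mutants, at 267 CPM. The mutants were in the same order by the sum of 5 dental mesenchyme markers, at 6520, 11436, 12845 and 17920 CPM in K14J28, K14J30, K14J29 and K14J26, and by that of the odontoblast markers. The mesenchyme sum was mostly Col1a1, at 5464, 10179, 11548 and 16676 CPM in these embryos, and of the list Col1a1 and Pdgfra were called higher and Msx1 and Twist1 lower. Of the 4 odontoblast markers, 3 were called higher, and their sum was 2347 to 7483 CPM in mutants against 708 to 1995 CPM in controls. Beside these calls of epithelial, mesenchyme and odontoblast markers, 9.52% of all tested genes were called higher and 6.61% lower. The part of these cell types in the ligand levels was not tested. Without J6 and J7, the controls with skeletal muscle transcripts, the log2 fold changes were 0.92 for Wnt10a and -0.32 for Wnt11, and neither was called (adjusted p = 0.239 and 0.176 from edgeR). In that setting only 3 of all tested genes were called higher and 4 lower.

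The genes whose log2 levels over the 8 embryos were most like those of each ligand were taken from 14734 genes with a mean of at least 1 CPM. For Wnt6 they were Selenom and Bcam, with Pearson r of 0.999 and 0.997. For Wnt10a they were Fam20a, which encodes a pseudokinase required for enamel formation, and Gpr108, with r of 0.998 and 0.997. Wnt10b was closest to 1700018A04Rik (r = 0.99) and Hs2st1 (r = 0.98), Wnt11 to Stxbp4 and Sgce (both 0.97) and Wnt3 to Tcea3 (0.99) and Plekhb1 (0.97). For Wnt4 they were Ppp2r2d and Ccdc126 (0.983 and 0.975), for Wnt5a Nectin3 and Cdc42ep4 (0.97 and 0.96), for Wnt5b Ube3b and Pygo2 (0.97 each) and for Wnt7b Mast3 and Ahsa2 (0.91 and 0.89). These are descriptions of 8 embryos in 2 groups, picked as the highest values of many.

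Of the other 9 Wnt ligands of the mouse, 5 were tested. Wnt9b was called lower, on 0 to 19 counts per embryo, and none was called higher, where 6.61% of all tested genes were lower and 9.52% higher. By the rule of the study, Wnt3a and Wnt7a were higher and Wnt9b was lower, beside 8.33% and 5.85% of all tested genes. Wnt3a had 57.3 ± 4.65 CPM in controls and 84.2 ± 23.2 CPM in mutants, without overlap (log2 fold change 0.55, adjusted p = 0.0516 from edgeR). Wnt7a had 27.6 ± 4.08 and 40.3 ± 10.2 CPM (log2 fold change 0.55, adjusted p = 0.0604). Wnt2b, at 2.96 and 3.02 CPM, and Wnt9a, at 6.19 and 6.91 CPM, had log2 fold changes of 0.02 and 0.16. Wnt1, Wnt2, Wnt8a and Wnt8b had too few counts to be tested, at most 27 in an embryo. By position, Wnt3 is 24.3 kb from Wnt9b and Wnt10b is 11.7 kb from Wnt1, each pair on opposite strands. Wnt3 and its neighbour Wnt9b thus had log2 fold changes of opposite sign, 0.90 (not called) and -1.99, unlike the neighbours Wnt6 and Wnt10a. Wnt3a and Wnt9a, 16.2 kb apart on opposite strands, had the same sign, at 0.55 and 0.16, and neither was called.

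Among the genes that make and clear the ligands, none of 10 was called in either direction, by edgeR or by DESeq2. Over all tested genes edgeR called 9.52% higher and 6.61% lower. Porcn, the acyltransferase, had 23.8 ± 1.96 CPM in controls and 20.1 ± 1.21 CPM in mutants (log2 fold change -0.24, adjusted p = 0.0789 from edgeR). Wls, the carrier that takes Wnt proteins to the cell surface, had 585 ± 29.3 and 671 ± 71.1 CPM (log2 fold change 0.20, adjusted p = 0.128). Snx3 and Trabd2b had log2 fold changes of -0.12 and -0.55. These 4 genes had the smallest unadjusted p of the list. With upper-quartile scaling, by library size only, with Xist in the fit, without K14J28, without K14J28 and K14J29 or by the rule of the study, 1 of the 10 was called lower.

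The receptors bind the ligands at the cell surface. Of 16 receptors and co-receptors 5 were called lower and 1 higher, and their median log2 fold change was -0.09, where 6.61% of all tested genes were lower and 9.52% higher. Both Ror receptors, which bind Wnt5a, fell: Ror2 from 57.6 ± 6.42 to 33.6 ± 2.69 CPM (log2 fold change -0.78, SE 0.10, adjusted p = 0.00523 from edgeR) and Ror1 from 53.4 ± 2.79 to 42.7 ± 2.01 CPM (log2 fold change -0.32). Fzd1 fell from 46.2 ± 4.90 to 29.5 ± 2.93 CPM, Fzd2 from 94.9 ± 4.87 to 73.3 ± 8.29 CPM and Fzd10 from 14.8 ± 1.06 to 11.2 ± 0.465 CPM. Fzd6 rose from 80.9 ± 5.46 to 114 ± 23.3 CPM. Fzd7 had 104 ± 8.68 and 89.2 ± 8.27 CPM and was not called. The groups did not overlap for 6 of the 16, those called, where 24.2% of all tested genes were separate in this way. The ligand Wnt5a, by comparison, differed by -0.11 on the log2 scale, where its receptor Ror2 differed by -0.78. Without J6 and J7 none of the 16 was called, with the enamel gene score in the fit 1 was lower and none higher, and by the rule of the study 2 were lower and none higher. The whole table lost its calls too. Without J6 and J7, 3 of all tested genes were higher and 4 lower, and with the enamel gene score 186 and 112. Without J3, J6, J7 or K14J29, 2 or 3 of the 16 were called lower, and the call of Fzd6 was lost without J3, J5, J6, J7 or K14J29. Of all tested genes 287, 553, 236 and 170 were called lower without J3, J6, J7 and K14J29.

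Of 9 genes for receptor turnover and R-spondins, 1 was called lower and none higher, near the shares of 6.61% and 9.52% over all tested genes. Rspo2, a secreted protein that enhances Wnt signalling by keeping Frizzled receptors on the cell surface, fell from 39.9 ± 11.04 CPM, with a range of 28.9 to 55.1, to 11.6 ± 2.88 CPM, with a range of 9.36 to 15.8. Its log2 fold change of -1.79 (SE 0.22, adjusted p = 0.00523 from edgeR) was larger in size than that of any tested member. Lgr6, an R-spondin receptor, had 62.6 ± 6.83 and 51.5 ± 2.65 CPM (adjusted p = 0.0526), and Rspo1 and Znrf3 had log2 fold changes of -0.54 and -0.18. Leaving out J6, K14J26 or K14J28 gave 2 or 3 genes called lower, where 553, 1349 and 1843 of all tested genes were. Without J6 and J7 or with the enamel gene score in the fit none was called. In the whole table these 2 settings called 3 and 186 genes higher and 4 and 112 lower.

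Of 15 secreted antagonists and Kremen receptors, 4 were called lower and 1 higher, with a median log2 fold change of -0.44. The shares over all tested genes were 6.61% lower and 9.52% higher. Frzb, which binds Wnt proteins, fell from 56.5 ± 10.2 to 31.0 ± 3.87 CPM (log2 fold change -0.87, adjusted p = 0.00975 from edgeR). Its relatives Sfrp1 and Sfrp5 fell with log2 fold changes of -0.44 and -0.47, and Kremen2, a receptor for Dkk proteins, from 5.003 ± 1.37 to 2.22 ± 0.676 CPM. Sost rose, but from 0.194 ± 0.201 to 1.31 ± 0.915 CPM, was at 0 counts in at least 1 embryo, and is named after its values were seen. Its call was lost without J3, J5, J6, J7, K14J29 or K14J30. The call also ended by library size only and with the filter of 20 counts in all 4 embryos of a group. Without J3, J5, J7 or K14J29, 1 or 2 of the 15 were called lower, and with Xist in the fit 2. Without J6 and J7 or with the enamel gene score in the fit none was called in either direction. In the whole table these 2 settings called 3 and 186 genes higher and 4 and 112 lower. Without J3, J5, J7 and K14J29, 287, 388, 236 and 170 of all tested genes were called lower.

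On the receiving side, 5 of 10 feedback targets and nuclear factors were called lower and 1 higher, with a median log2 fold change of -0.26, again beside 6.61% and 9.52% of all tested genes. Lef1 fell from 38.4 ± 8.37 to 19.9 ± 1.83 CPM (log2 fold change -0.95, adjusted p = 0.0104 from edgeR), Tcf7 from 129.8 ± 14.1 to 77.3 ± 15.5 CPM and Tcf7l1 from 57.9 ± 3.46 to 44.8 ± 6.03 CPM. Sp5, a target gene, had 3 to 18 counts per embryo and a log2 fold change of -1.64. The rise was that of Apc, from 152 ± 8.95 to 214 ± 41.4 CPM. The feedback genes Axin2 and Nkd1, named after their values were seen, had 38.9 ± 3.55 and 34.6 ± 10.7 CPM, and 41.1 ± 5.29 and 39.3 ± 9.19 CPM, and neither was called, while Nkd2 was lower (log2 fold change -0.36). Leaving out J3, J5, J6, J7, K14J29 or K14J30 left 1 to 3 of these called lower, as did Xist in the fit with 2 and the rule of the study with 3. The call of Apc was lost without J3, J5, J6, J7 or K14J29, and none was called without J6 and J7 or with the enamel gene score in the fit. In the whole table the last 2 settings called 3 and 186 genes higher and 4 and 112 lower. With J3, J5, J6, J7, K14J29 or K14J30 left out, 170 to 824 of all tested genes were called lower.

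Promoter windows of 300 bases, 250 before to 50 after a transcript start, were taken from RefSeq on GRCm38.p6. They held 10 windows for 7 of the 10 ligands, while Wnt10a, Wnt5a and Wnt7b were not matched. The letters GTGGGAA, read on both strands for RBPJ, the DNA-binding partner of Notch, were in 0 of the 10 windows and in 6.38% of all 32851 promoters. The letters CTTTGAA or CTTTGAT for Lef/Tcf factors, also on both strands, were in 2 windows, of Wnt11 and of Wnt5b, and in 8.65% of all promoters. Both ligands also had windows at other starts, and these held no match. The 100 bases before the start of Wnt11 with the match are printed, Wnt11 being the ligand called lower. The match is on the minus strand and therefore appears in reverse complement, in capitals, from base -51 counted from that start (plus strand, chr7:98835012-98835111).
Wnt11: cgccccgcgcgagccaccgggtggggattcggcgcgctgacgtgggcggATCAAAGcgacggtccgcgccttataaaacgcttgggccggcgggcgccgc
A match is a description of the letters in this window.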

How the data were processed

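Lower molars of 4 control and 4 mutant embryos were sequenced single-end from poly(A) RNA with an unstranded kit. The authors trimmed the reads, aligned them with STAR to GRCm38 (the submitters' processing notes name GRCm38.p3) and deposited a table per embryo of raw counts per Ensembl gene, not normalized. The notes name featureCounts and the paper GenomicRanges for the counting. How reads with several matches were counted is not given in the sources used here. Symbols and positions came from GENCODE M21, which held 42548 of the 43629 identifiers.

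A gene was kept if 2 or more of the 4 embryos of either group had 10 or more counts, which gave 17129. After TMM scaling, edgeR 4.0.16 (R 4.3.3) fitted the genotype alone, and its quasi-likelihood test was used. Calls used Benjamini-Hochberg adjustment at 0.05. CPM are counts over the TMM-scaled library size, and log2 CPM used a prior count of 2. SE is the log2 fold change over the root of F. The fit was tested on simulated data, and no result of that test is used here. Replicates were separate embryos whose counts differed by more than sampling noise. Litter and sex of the embryos were not used. The 4 embryos per group limit precision, and for Wnt16 and Wnt3 the low counts do so too.

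The members, gene lists and alternatives were chosen with earlier results of these data known. Named were all members, every other Wnt ligand, for each list at most 4 genes with the smallest unadjusted p and those the study names, and for each member the 2 genes with the highest Pearson r. Nkd1, Nkd2, Axin2, Sost and the marker genes named singly were added after their values were seen. The alternatives were scaling by relative log expression, by the upper quartile, by library size only or without the 20 most abundant genes, no filter, a filter of 20 counts in all 4 embryos, DESeq2 1.42.0, leaving out embryos, and Xist or the enamel gene score as a covariate.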

Additional observations from a re-analysis of the deposited data

Results flagged for a closer look

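Among 20 sets of 4 values, each a ligand in a group, that of Wnt5b in the mutants held a value apart from the rest. K14J28 had 5.96 CPM, and the gap to the nearest mutant was 0.860 of the whole range, above Dixon's critical value for 4 samples at 95%. Chance puts about 1 in 20 such sets past this value.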

How the results depend on the processing

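Over all tested genes 1631 were called higher and 1133 lower. By library size only 855 were called higher, and with DESeq2 1718 were called lower. Without J6 and J7 the counts were 3 and 4, with the enamel gene score as a further term 186 and 112, and with 1 embryo left out 250 to 2479 and 170 to 1843. Leaving out J3, J5, J6, J7, K14J28 or K14J29 moved these counts by more than 1.5 times. Of the Wnt ligands 1 was called higher and 1 lower. Upper-quartile scaling, library size only, scaling without the 20 most abundant genes, leaving out J6 and J7 and the enamel covariate gave 0 higher, DESeq2 and the Xist covariate 2, and leaving out K14J28 and K14J29 or the criteria of the study 3. No filter, leaving out J6 and J7, the Xist covariate and the enamel covariate gave 0 lower, and DESeq2 2. With 1 embryo left out, 0 to 4 ligands were called higher and 0 to 2 lower. The log2 fold change changed sign with the enamel covariate for Wnt3 (-0.10), Wnt4 (-0.75), Wnt6 (-0.31) and Wnt10a (-0.12). That of Wnt4 also did with upper-quartile scaling (-0.031), by library size only (-0.12) and without K14J26, where it was -0.30 against at most 0.15 without any other embryo. The cause was not tested. Wnt5a, Wnt5b, Wnt7b, Wnt10b and Wnt11 kept their direction in all 19 alternatives, with Wnt11 called in 8 and Wnt10b in 3. Of all recomputed values, 316 kept their direction and call, or their size for counts, 121 counts or ranks moved, 23 values lost and 13 gained their call, and 7 changed sign. No paired analysis was possible because the labels give the groups no shared replicate numbers. Depth limits Wnt16, and for Wnt3 the 12 to 59 counts per embryo.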
